A study of Mus musculus with 12 samples.

Results

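Complement is a cascade of plasma proteins, made largely by the liver, that marks and lyses microbes and clears debris. Lectins start it by binding sugars, the C1 complex starts it on antibody, and the alternative arm amplifies it. All arms meet at C3 and end in the terminal proteins that build a pore in membranes. Soluble and membrane-bound regulators restrain each step. The genes described here are 34 complement genes, listed by name but with earlier results of these data known. Of these, 31 were measured among the 22180 genes of the array. Each was read from its probe set with a single gene symbol and the highest mean over all 12 arrays, and 30 of the 31 had 1 such probe set. Masp2, C3 and Cfd were not analysed here, so the central component C3 and a protease of each of the lectin and alternative arms are missing from every count.

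The livers came from male C57BL6/J mice aged 8 to 10 weeks, all of which received an Ad5 adenovirus in the tail vein and were killed on day 4 after a 6 h fast. The virus was Ad-GFP in 6 samples (replicates 1 to 6) and Ad-hApoF, which carries human apolipoprotein F, a lipoprotein-bound inhibitor of lipid transfer, in the other 6 (replicates 7 to 12). Both groups therefore carried an adenovirus, which is itself a trigger of innate immunity. Uninjected livers were not analysed here, and the labels give neither the viral dose nor the promoter of the transgene. The labels do not say sample by sample that each array is a separate animal, so the p-values rest on the spread among arrays, which may be technical.

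Values are log2 RMA values, in which 1 unit is a doubling, and a difference is always hApoF minus GFP. Array medians lay between 4.93 and 5.03, and 30 of the 31 complement genes had a mean above the median gene. The liver was checked by its markers. The mean level of 15 hepatocyte genes was 11.66 to 11.78 in GFP arrays and 11.80 to 11.85 in hApoF arrays, and the lymphocyte, bile duct and adipocyte lists lay at 4.35 to 4.99 in every array. Over all genes, 469 were higher and 1064 lower in hApoF livers (limma, Benjamini-Hochberg adjusted p under 0.05), and the median difference was 0.03.

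Complement transcripts changed in a few places and mostly did not pass the test. Masp1, a protease gene of the lectin arm, and C8a, which encodes a chain of the membrane pore, rose, as did Cd59a, an inhibitor of that pore. The Cd59a call held in only 3 of the 12 fits that left out 1 array. Mbl2, a sugar-binding lectin gene, fell. Thus 3 of 31 genes rose (9.68%), where 2.11% of all genes rose, and 1 fell (3.23%), where 4.80% of all genes fell. In either direction 4 of 31 passed (12.9%), against 6.91% of all genes, and the remaining 27 did not pass. Most complement genes are bright in liver, so bright genes were also tested alone. With the 11090 genes above the median level tested alone, 6.24% of genes rose and 12.8% fell. Of the 30 complement genes among them, 6 rose and 1 fell. That fit had its own variance estimate and adjustment, and it called 2107 genes against 1533 in the fit of all genes. The part of brightness in these shares was not tested. The groups had no overlapping values for 4 genes (12.9%), Masp1, Mbl2, Fcna and C8a, against 4.98% of all genes. The median difference of the 31 genes was 0.12, and 22 of them lay above 0, which was true of 57.7% of all genes.

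By arm, the lectin genes had 1 higher and 1 lower of 6 measured, with a median of 0.31. None of the 4 classical genes passed (median -0.02; 0 had an unadjusted limma p under 0.05), nor did either of the 2 alternative genes (median 0.04; 1 with an unadjusted p under 0.05). The terminal arm had 1 higher of 7 and a median of 0.23, and the regulators 1 higher of 10 and a median of 0.08. Neither of the 2 anaphylatoxin receptors passed (median 0.13; 0 with an unadjusted p under 0.05). All 6 lectin genes and 5 of the 7 terminal genes had an unadjusted limma p under 0.05, against 21.3% of all genes. In none of the 20 alternative fits did a classical, alternative or receptor gene pass. The arms were not tested against each other.

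**Figure D1:**
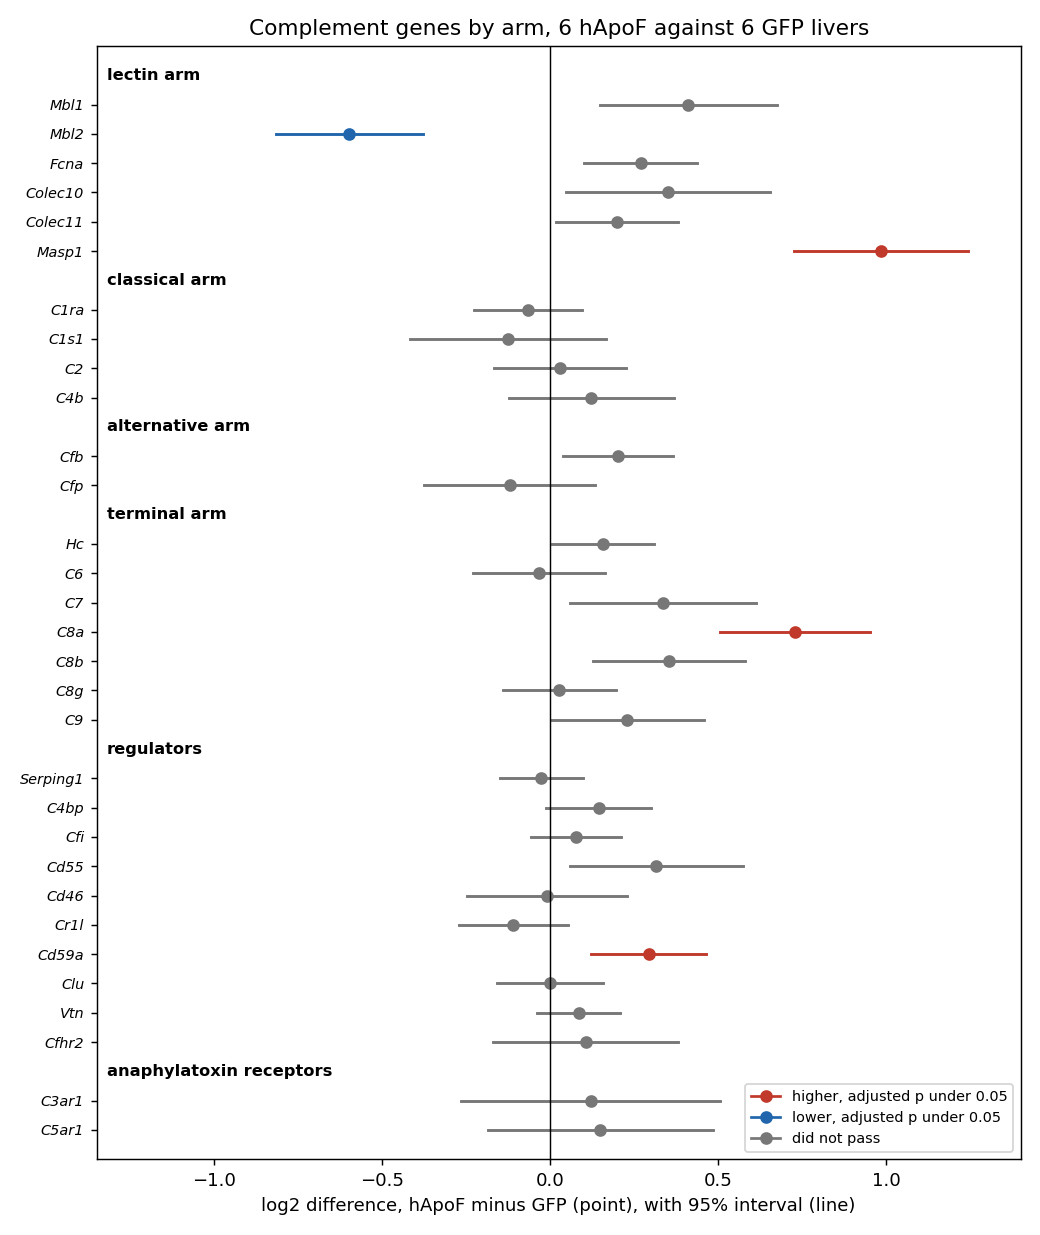
Log2 difference (hApoF minus GFP, 6 against 6 arrays) of each measured complement gene, grouped by arm on the vertical axis, with its 95% limma interval as a line; red and blue mark genes that passed the adjusted test. Masp1 (0.99), C8a (0.73) and Cd59a (0.29) lie to the right, Mbl2 (-0.60) alone lies clearly to the left, and the 4 classical genes straddle 0.

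The lectin arm begins with proteins that bind microbial sugars. Mbl1 and Mbl2 encode the paired mannose-binding lectins of the mouse, on chromosomes 14 and 19. Their promoters are shown because the group means of these paralogs differed with opposite signs, although only the Mbl2 difference passed the test. Each is the RefSeq sequence of assembly GRCm38.p6 from 250 bases before to 50 after the annotated start, on the plus strand, for Mbl1 chr14:41151206-41151505 and for Mbl2 chr19:30232678-30232977. Capitals mark the longest run of bases that both contain.
Mbl1: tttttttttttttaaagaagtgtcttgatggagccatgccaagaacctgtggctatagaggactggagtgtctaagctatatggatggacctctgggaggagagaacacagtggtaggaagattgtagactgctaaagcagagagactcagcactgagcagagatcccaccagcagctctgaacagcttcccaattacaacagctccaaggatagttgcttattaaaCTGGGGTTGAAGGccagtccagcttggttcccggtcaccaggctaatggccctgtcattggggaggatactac
Mbl2: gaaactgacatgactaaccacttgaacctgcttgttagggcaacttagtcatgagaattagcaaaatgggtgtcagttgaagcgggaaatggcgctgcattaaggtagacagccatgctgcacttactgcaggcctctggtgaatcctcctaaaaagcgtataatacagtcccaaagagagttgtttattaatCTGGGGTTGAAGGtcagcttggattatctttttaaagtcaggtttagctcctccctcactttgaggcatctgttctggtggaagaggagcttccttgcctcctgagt

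The shared run, CTGGGGTTGAAGG, is 13 bases long. It ends 11 bases before the start in Mbl1 and 45 bases before it in Mbl2, and 3 of the 32851 promoters in the table hold it on either strand, these 2 included. Neither promoter holds the TATA box letters TATAAA, which 13.6% of all promoters of this length hold on either strand. The letters CCAAT occur in Mbl1 at position -60 and, reversed and complemented, at position 34, and not in the Mbl2 window (37.4% of all promoters hold them).

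Mbl2 ranged from 10.54 to 11.03 with a median of 10.88 in GFP livers, and from 10.06 to 10.48 with a median of 10.21 in hApoF livers. Every hApoF array lay below every GFP array. Mbl2 fell by 0.60 on the log2 scale (SE 0.10, limma adjusted p = 0.0020; exact two-sided permutation p = 0.0022, the smallest that the design allows). Within the GFP group the arrays formed a higher trio, GFP 2, 3 and 6 at 11.01 to 11.03, and a lower trio, GFP 1, 4 and 5 at 10.54 to 10.75. The lower trio was nearer to the hApoF arrays.

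Mbl1 ranged from 9.39 to 9.95 (median 9.75) in GFP livers and from 9.76 to 10.44 (median 10.24) in hApoF livers. The groups overlapped, because hApoF 9 and hApoF 10 lay within the GFP range. The difference of 0.41 (SE 0.12) did not pass (limma adjusted p = 0.058), although it did under other variance settings, among brighter genes alone and without GFP 4, hApoF 9 or hApoF 10 (limma adjusted p down to 0.023). Within arrays, the log2 ratio of Mbl1 to Mbl2 ranged from -1.64 to -0.60 in GFP and from -0.58 to 0.32 in hApoF livers. The mean ratio was 1.01 higher in hApoF livers, and the groups of ratios did not overlap. This pair and 6 others of related genes were drawn up after the values were seen, so their ratios are given as a description, with no test.

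Masp1 encodes the lectin-associated serine protease MASP-1 and, by alternative splicing, MASP-3 and a truncated protein without protease activity. A single probe set reads the gene, and these products are not told apart. Masp1 ranged from 8.80 to 9.48 (median 9.09) in GFP livers and from 9.91 to 10.26 (median 10.10) in hApoF livers, and all 6 hApoF arrays lay above all GFP arrays. It rose by 0.99 (SE 0.12, 95% interval 0.73 to 1.24), or 1.98-fold (limma adjusted p = 1.2e-04). The 12 fits that each left out 1 array gave adjusted p from 3.8e-05 to 5.1e-04. The same trios of GFP arrays stood apart: GFP 1, 4 and 5 were at 9.33 to 9.48, and GFP 2, 3 and 6 at 8.80 to 8.86. For Masp1 too, GFP 1, 4 and 5 were nearer to the hApoF arrays. Over all probe sets, the medians and upper quartiles of the trios lay close together without overlap. The highest correlation of GFP 1 with another array was nevertheless with GFP 2, of the other trio (r = 0.993). Array medians were 4.93 to 4.96 in GFP 2, 3 and 6 and 4.97 to 5.03 in GFP 1, 4 and 5. Upper quartiles were 6.74 to 6.81 in GFP 2, 3 and 6 and 6.67 to 6.74 in GFP 1, 4 and 5. The part of this in the values of single genes was not tested.

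Fcna encodes ficolin-A, a lectin that macrophages make in the mouse. Its values were 7.05 to 7.18 (median 7.15) in GFP and 7.25 to 7.73 (median 7.36) in hApoF livers, so the groups did not overlap. The difference of 0.27 (SE 0.08) lay just beyond the threshold (limma adjusted p = 0.055). Fcna passed in the permutation test adjusted over all genes (permutation adjusted p = 0.043). That restates the lack of overlap, because the 1104 genes that passed this test were those without overlap. Fcna passed when arrays were quantile normalized again (limma adjusted p = 0.018). It also passed with trend and robust settings, among brighter genes, and without hApoF 7, its lowest hApoF array (limma adjusted p = 0.047 without hApoF 7). Without hApoF 8, its highest array, the difference was 0.20 (limma adjusted p = 0.078).

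Colec10 and Colec11 encode collectins that circulate as a joint complex. Colec10 lay at 7.64 to 8.00 in GFP and at 7.54 to 8.58 in hApoF livers (difference 0.35, SE 0.14, limma adjusted p = 0.167). Its lowest hApoF array was hApoF 7, and without it the difference was 0.47 (limma adjusted p = 0.023). Colec11 lay at 6.79 to 7.03 and 6.86 to 7.36 (difference 0.20, limma adjusted p = 0.189). The mean log2 ratio of the collectins was 0.15 higher in hApoF livers, and the groups overlapped.

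**Figure D2:**
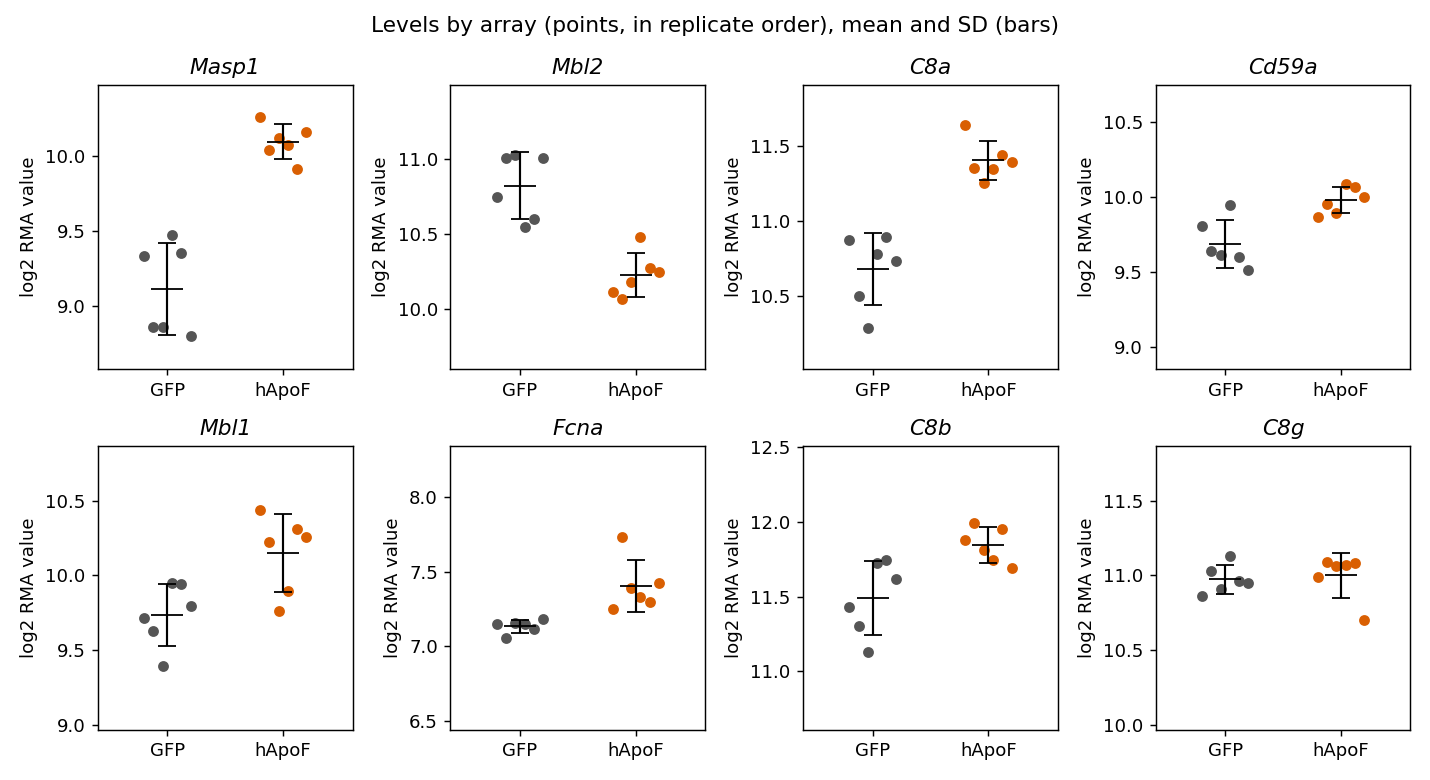
Log2 RMA values of 8 complement genes in each array (points, in replicate order), with mean and SD of the 6 GFP and 6 hApoF arrays; the vertical axis spans the same number of log2 units in every panel. Masp1 and C8a are higher and Mbl2 is lower in every hApoF array, Fcna separates by a small margin, Cd59a, Mbl1 and C8b overlap, and C8g overlaps, with hApoF 12 lowest.

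Fcna, Colec10 and Colec11 can come from cells other than hepatocytes, so marker lists of such cells were counted, beside 2.11% of all genes that rose and 4.80% that fell. In bulk liver, a change in the number of cells of a type and a change in RNA per cell cannot be told apart. Of 8 Kupffer cell markers 3 rose, 1 fell and 4 did not pass, and their mean level was 6.74 to 7.63 in GFP and 7.24 to 8.21 in hApoF arrays. Across the 20 alternative fits 1 to 4 of them rose, with 1 in the permutation test. The defining marker Clec4f rose by 1.26 (limma adjusted p = 0.010), and the iron exporter gene Slc40a1 fell by 0.47. Clec4f passed in 19 of the 20 alternative fits, but not in the permutation test (adjusted p = 0.062). Of 14 stellate cell and fibroblast markers 5 rose and 0 fell, with mean levels of 7.17 to 7.48 and 7.46 to 7.76. That count was 3 without GFP 1, 2, 3 or 6 or hApoF 7, 8 or 12, and 8 of 13 among brighter genes.

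Of 15 general macrophage and monocyte markers 1 rose (2 with trend and robust settings and among brighter genes), and their mean levels overlapped, at 6.98 to 7.68 and 7.14 to 7.47. Of 11 sinusoidal endothelium markers 3 rose, with mean levels of 8.12 to 8.59 and 8.43 to 8.78. That count was 7 without GFP 4, 6 with trend and robust settings and among brighter genes, 5 without GFP 4 and hApoF 12 together, and 0 in the permutation test. Of 10 neutrophil markers 2 rose, with mean levels of 4.17 to 4.48 and 4.32 to 4.83. That count was 1 without GFP 1, 2, 3, 5 or 6 or hApoF 7, 8, 10 or 11 and after renewed quantile normalization. It was 0 in the permutation test and 0 of the 2 that were tested among brighter genes. The part of these lists in the lectin values was not tested.

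The classical arm starts when C1 binds antibody. C1ra and C1s1 encode its proteases, neighbours on chromosome 6 with close paralogs beside them, so cross-reading by probes is possible. C1ra lay at 6.15 to 6.33 in GFP and at 6.01 to 6.35 in hApoF livers (difference -0.07, 95% interval -0.23 to 0.10, limma adjusted p = 0.667). C1s1 lay at 7.48 to 7.74 and at 6.70 to 7.71 (difference -0.13, interval -0.42 to 0.17, limma adjusted p = 0.648). The low value belongs to hApoF 12, and without it the difference of C1s1 turned to 0.02.

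C2 and C4b encode the parts of the convertase that the lectin and classical arms share. C2 lay at 8.67 to 9.01 in GFP and at 8.51 to 9.03 in hApoF livers (difference 0.03, interval -0.17 to 0.23, limma adjusted p = 0.889). C4b, which has the near-identical neighbour C4a, lay at 10.88 to 11.10 and at 10.59 to 11.41 (difference 0.12, interval -0.12 to 0.37, limma adjusted p = 0.588). For both genes hApoF 12 was the lowest array of the 12, and without it the C4b difference was 0.23 (limma adjusted p = 0.102). C1qa, C1qb and C1qc, which encode the recognition part of C1 and are made by macrophages, differed by 0.20, 0.05 and 0.15 and did not pass (limma adjusted p = 0.299, 0.823 and 0.477).

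In the alternative arm, Cfb encodes factor B, which carries the protease of its convertase. It lay at 11.06 to 11.27 (median 11.14) in GFP and at 11.13 to 11.55 (median 11.33) in hApoF livers, and 5 of the 6 hApoF arrays were above every GFP array. The difference was 0.20 (SE 0.08, limma adjusted p = 0.136). Cfp encodes properdin, the stabiliser of that convertase, which myeloid cells make. It lay at 6.88 to 7.48 in both groups (difference -0.12, interval -0.38 to 0.13, limma adjusted p = 0.607).

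The terminal arm runs from Hc, the mouse gene of C5, through C6 and C7 to C8 and C9, which insert into membranes. C8 is built from 3 chains. C8a and C8b, which encode the related alpha and beta chains, are neighbours on chromosome 4 and are read from opposite strands, and C8g, on chromosome 2, encodes the small gamma chain of another protein family. The promoters of C8a (chr4:104876349-104876648, minus strand, read 5′ to 3′ in the direction of the gene) and C8b (chr4:104766067-104766366, plus strand) are shown because the genes are neighbours whose differences were unlike in size, and only that of C8a passed. They are from the same RefSeq table and span the same window, and capitals mark the longest runs that both contain.
C8a: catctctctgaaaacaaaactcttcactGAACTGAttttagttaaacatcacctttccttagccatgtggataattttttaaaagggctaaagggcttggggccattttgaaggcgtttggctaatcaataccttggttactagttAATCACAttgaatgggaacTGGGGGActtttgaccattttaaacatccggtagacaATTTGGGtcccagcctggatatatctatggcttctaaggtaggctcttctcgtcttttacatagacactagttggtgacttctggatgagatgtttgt
C8b: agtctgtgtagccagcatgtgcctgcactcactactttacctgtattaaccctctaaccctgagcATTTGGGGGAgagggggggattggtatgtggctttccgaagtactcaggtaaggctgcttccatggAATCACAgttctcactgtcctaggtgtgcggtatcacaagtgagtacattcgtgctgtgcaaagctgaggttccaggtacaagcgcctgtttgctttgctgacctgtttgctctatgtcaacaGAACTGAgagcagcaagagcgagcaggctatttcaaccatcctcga

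The longest shared runs were 4 of 7 bases each, of which TGGGGGA and ATTTGGG overlap in C8b. Each of them is held by 3.38% to 7.99% of all promoters on either strand. None of the searched letters TATAAA, the palindrome of the hepatocyte factor HNF1, CAAAGTCCA (HNF4), TTGCNNCAA (C/EBP) and TTCCNGGAA (STAT) was in either window or in those of the mannose-binding lectins. The shares of all promoters that hold them are 13.6%, 0.040%, 0.475%, 2.08% and 1.15%. CCAAT was found in C8b only, at position -166 on the opposite strand.

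C8a ranged from 10.28 to 10.89 (median 10.76) in GFP livers and from 11.26 to 11.64 (median 11.38) in hApoF livers, without overlap. Here too GFP 1, 4 and 5, at 10.78 to 10.89, were nearer to the hApoF arrays than GFP 2, 3 and 6, at 10.28 to 10.73. C8a rose by 0.73 (SE 0.10, 95% interval 0.51 to 0.95), or 1.66-fold (limma adjusted p = 4.5e-04), and passed in all 12 fits that left out 1 array (adjusted p up to 0.0017). C8b ranged from 11.13 to 11.75 (median 11.52) and from 11.69 to 11.99 (median 11.85), so that GFP 4 and GFP 5 reached the lower hApoF arrays. Its difference of 0.35 (SE 0.11) did not pass (limma adjusted p = 0.057). The C8b difference did pass without GFP 4 (0.40, limma adjusted p = 0.031) and without GFP 5. It also passed with trend and robust settings, among brighter genes and without GFP 4 and hApoF 12 together (limma adjusted p down to 0.027). C8g ranged from 10.86 to 11.13 and from 10.70 to 11.09, a difference of 0.03 (interval -0.14 to 0.20, limma adjusted p = 0.880).

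Of the 3 chains of C8, C8a alone passed, and the ratios within arrays describe how the values lay beside each other. The log2 ratio of C8a to C8g lay between -0.63 and 0.01 in GFP and between 0.19 and 0.69 in hApoF livers, with means 0.70 apart. That of C8a to C8b lay between -0.94 and -0.56 and between -0.63 and -0.24, with a slight overlap and means 0.38 apart. That of C8b to C8g lay between 0.22 and 0.78 and between 0.68 and 0.98, with means 0.33 apart. Levels of different probe sets cannot be set against each other, so the ratio itself gives no order of the chains.

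**Figure D3:**
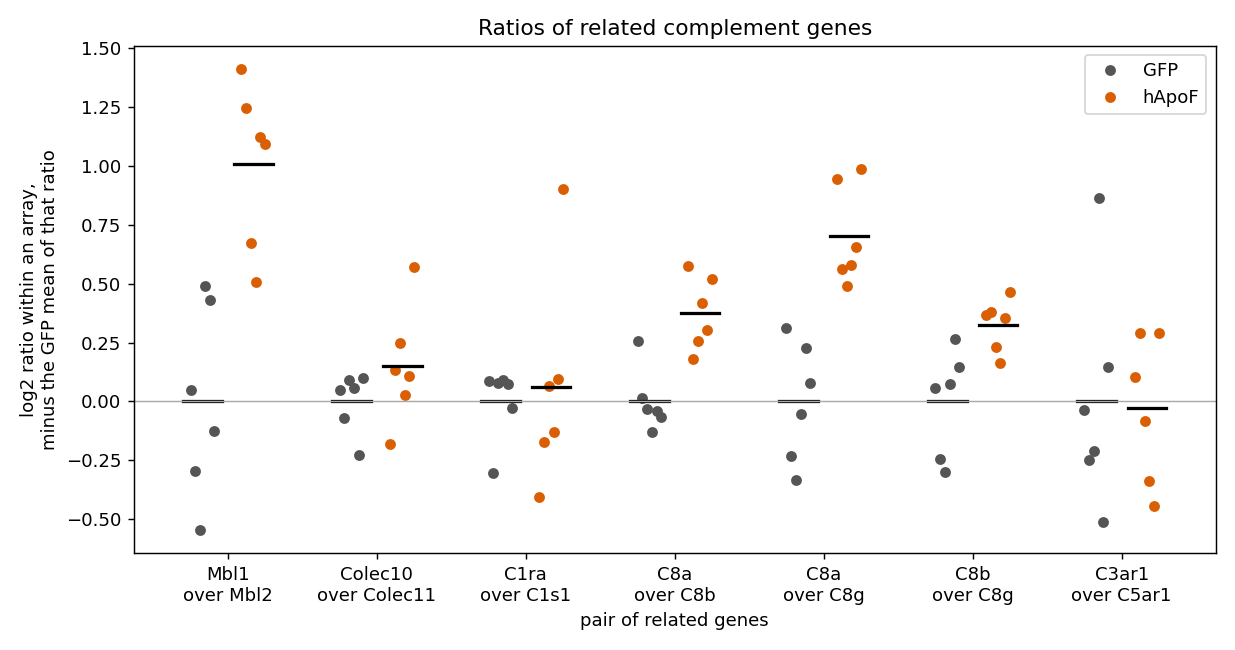
Log2 ratio of 2 related complement genes within each array, minus the GFP mean of that ratio (vertical axis), for 7 pairs (horizontal axis); points are arrays and black lines group means. The ratio of Mbl1 to Mbl2 is 1.01 higher in hApoF livers and that of C8a to C8g 0.70 higher, whereas the C1 proteases and the anaphylatoxin receptors scatter around 0.

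None of the other 5 terminal genes passed. Hc lay at 11.89 to 12.19 in GFP and at 12.07 to 12.31 in hApoF livers (difference 0.16, limma adjusted p = 0.220). C6 differed by -0.03 (interval -0.23 to 0.16) and C9, the pore-forming unit, by 0.23 (interval 0.00 to 0.46, limma adjusted p = 0.232). C7 was the dimmest of the arm, at 4.70 to 5.67 and 5.20 to 5.64, near the array medians. Its difference of 0.34 (limma adjusted p = 0.146) passed without GFP 4, the highest GFP array (0.44, limma adjusted p = 0.022).

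Among the regulators, Cd59a encodes the membrane anchor protein that stops C9 from joining the pore. It ranged from 9.52 to 9.95 (median 9.63) in GFP livers and from 9.87 to 10.09 (median 9.98) in hApoF livers. GFP 4 lay within the hApoF range, and 4 of 6 hApoF arrays were above it. Cd59a rose by 0.29 (SE 0.08), or 1.23-fold (limma adjusted p = 0.039), a call that 9 of the 12 fits without 1 array lost, namely those without GFP 2, 3, 5 or 6 or hApoF 8, 9, 10, 11 or 12 (adjusted p up to 0.094, without GFP 6). The exact permutation test adjusted over all genes lost it as well (adjusted p = 0.075). Its paralog Cd59b differed by 0.05 (limma adjusted p = 0.856).

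The other membrane regulators did not pass. Cd55, decay-accelerating factor, lay at 6.44 to 6.99 (median 6.58) in GFP and at 6.72 to 7.41 (median 6.90) in hApoF livers, with a difference of 0.32 (SE 0.12, limma adjusted p = 0.140). Cr1l, which encodes the rodent regulator Crry, differed by -0.11 (interval -0.27 to 0.05), and Cd46, a cofactor for C3b and C4b cleavage, by -0.01 (interval -0.25 to 0.23). Cd46 was dim, at 5.12 to 5.88.

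The soluble regulators, which the liver secretes, had small differences that did not pass. Serping1, the C1 inhibitor, lay at 12.11 to 12.25 in GFP and at 12.11 to 12.24 in hApoF livers (difference -0.03, interval -0.15 to 0.10). Vtn, vitronectin, lay at 12.34 to 12.44 and 12.41 to 12.58 (difference 0.09, SE 0.06, limma adjusted p = 0.431). Clu, clusterin, had a mean of 11.29 in both groups (interval of the difference -0.16 to 0.16). The difference was 0.14 for C4bp, which binds C4b (interval -0.01 to 0.30), 0.08 for Cfi, the protease factor I (interval -0.06 to 0.21), and 0.11 for Cfhr2, a factor H-related gene of a multigene family (interval -0.17 to 0.38).

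C3ar1 and C5ar1 encode the receptors of the anaphylatoxins C3a and C5a on myeloid cells. C3ar1 lay at 5.37 to 6.62 in GFP and at 5.63 to 6.34 in hApoF livers (difference 0.12, interval -0.27 to 0.51). C5ar1 lay at 4.43 to 5.32 and at 4.61 to 5.39 (difference 0.15, interval -0.19 to 0.48). Both had wider intervals than most complement genes. Across the 27 genes that did not pass, no interval reached below -0.42 or above 0.67, and 21 of the intervals lay within 0.5 of 0 on both sides.

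**Figure D4:**
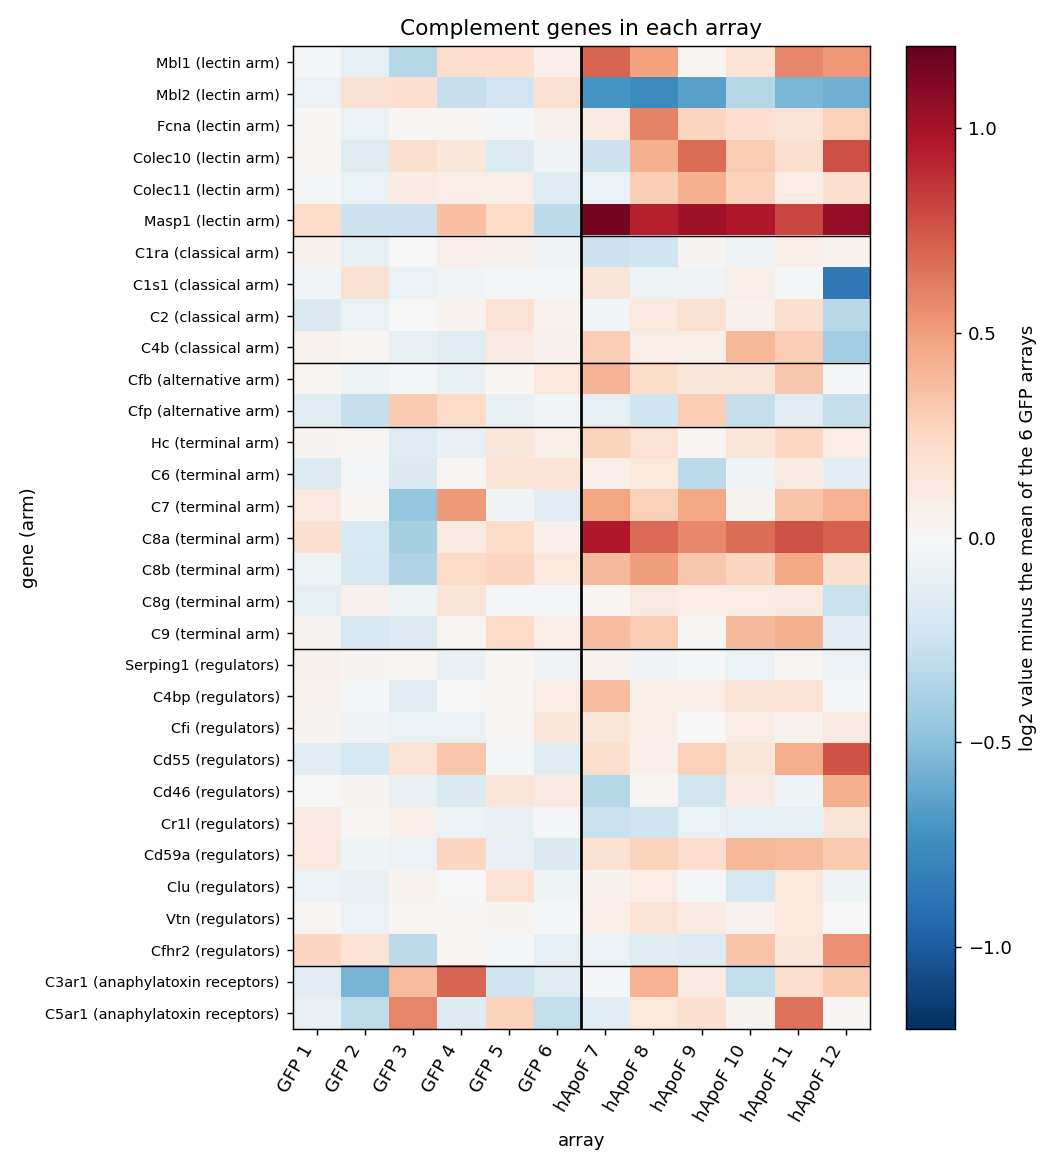
Each complement gene (rows, by arm) in each array (columns) as log2 value minus the mean of the 6 GFP arrays; red is higher and blue lower. Masp1 and C8a are red and Mbl2 is blue in all hApoF arrays, and hApoF 12 is blue for C1s1, C2, C4b and C8g.

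Arrays within a group also differed in their complement profile. Of the 31 genes, hApoF 12 was the lowest hApoF array in 10 and the highest in 5. For hApoF 7 the order was reversed, with the highest value in 10 and the lowest in 8. In the GFP group, GFP 3 was the lowest in 10 and GFP 2 in 9, and GFP 5 was the highest in 9 and GFP 4 in 8. GFP 3 was lowest for C8a (10.28), C8b (11.13) and Mbl1 (9.39), which were among the genes higher or nearly so in hApoF livers.

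Genes that neighbour each other on a chromosome were also set side by side. In RefSeq gene order, 12 of the 31 genes had another of them within 3 protein-coding genes. Besides C8a with C8b these were C1ra with C1s1, C2 with Cfb, C6 with C7, Cd55 with C4bp and Cd46 with Cr1l. The neighbours C2 and Cfb differed by 0.03 and 0.20, C6 and C7 by -0.03 and 0.34, and Cd55 and C4bp by 0.32 and 0.14, and none of these 6 genes passed.

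A further list of 29 complement receptors, regulators and close paralogs had 25 measured genes, of which 3 rose, 0 fell and 22 did not pass (median difference 0.05), beside 2.11% of all genes that rose. The count was 1 without GFP 1, 2 or 3, without hApoF 7, 9 or 11 and in the permutation test, and 1 gene fell after renewed quantile normalization, with trend and robust settings and among brighter genes. Susd4, a membrane regulator of the early convertases, lay at 6.13 to 6.80 in GFP and at 6.89 to 7.30 in hApoF livers. It rose by 0.56 (limma adjusted p = 0.0069) without overlap between the groups, and passed in all 12 fits that left out 1 array. Cpn2, the carrier subunit of the carboxypeptidase N that inactivates anaphylatoxins, rose by 0.32 (limma adjusted p = 0.027), and its catalytic partner Cpn1 differed by 0.02. Cpn2 passed in 4 of the 12 such fits.

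Vsig4, the Kupffer cell receptor for C3 fragments, varied most, at 5.08 to 6.90 (median 6.28) in GFP and 6.43 to 8.87 (median 7.39) in hApoF livers. It rose by 1.38 (limma adjusted p = 0.037), with overlapping groups, and passed in 5 of the 12 fits without 1 array. It is also 1 of the Kupffer cell markers described above, and whether it follows the number of those cells was not tested. Several complement genes are acute phase genes, so those were counted too. Of 20 acute phase genes 4 rose and 0 fell (median 0.23), beside 2.11% of all genes that rose, among them Crp (0.38, limma adjusted p = 0.0051) and the interleukin-6 receptor gene Il6ra (0.42). The count was 1 without GFP 2 or 6, 2 without GFP 1 or 3 or hApoF 9 or 11 and after renewed quantile normalization, 8 without hApoF 12, and 7 with trend and robust settings and among brighter genes. Of 16 interferon-stimulated genes 0 passed (limma; 6 with an unadjusted p under 0.05, median -0.12), beside 4.80% of all genes that fell. Across the 20 alternative fits 0 to 4 of them fell and 0 rose: 3 fell without GFP 4 and 3 without hApoF 9, and 4 of the 14 tested fell among brighter genes, where 12.8% of genes fell.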

How the data were processed

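Liver RNA of 12 samples was measured on 1 array each. The authors made the deposited log2 values with oligo and RMA, per the submitters' processing notes, which name no version or parameter; a build was not given in the sources used here. RMA generally includes quantile normalization, which removes most of any shift shared by nearly all genes. The number of arrays limits the precision.

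Of 35145 probe sets (0 missing values), 23521 carried 1 symbol in the platform's annotation, which can be old, 1814 carried several genes and 9810 had none listed. The last 2 kinds were left unnamed. A RefSeq table of assembly GRCm38.p6 held 23328 of the named probe sets, with 0 symbols updated. Each of the 22180 genes was read from its probe set with the highest mean, without a filter on brightness.

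hApoF was compared with GFP by limma 3.58.1 in R 4.3.3 (lmFit, eBayes, no covariates), with Benjamini-Hochberg adjustment over all genes and a threshold of 0.05. Intervals are 95% limma intervals. Exact two-sided permutation tests used every assignment of 6 of 12 arrays. The fit was tested on simulated data. Tables and plots used Python 3.11.15, pandas 2.3.3 and matplotlib 3.10.9. RefSeq promoters (28 windows) covered 26 of the 34 listed genes.

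The rule named all 34 listed genes, and up to 4 genes that passed from each other list, or 2 from marker lists. C1qa, C1qb, C1qc, Cd59b and Cpn1, the 7 pairs of related genes and the promoter motifs were chosen after values were seen. The members and lists were chosen with earlier results of these data known, so no list was given a test, nor were the pairs. Alternatives were other array scalings, variance settings, probe set rules, a brightness filter, the permutation test and leaving out arrays, among them GFP 4 and hApoF 12 together, which the earlier results had singled out. Those run on the pairs were added after seeing the data.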

Additional observations from a re-analysis of the deposited data

Results flagged for a closer look

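Within groups of 6 arrays, 5 single values stood apart from the rest of their group by Dixon's gap criterion (gap over range above 0.625). In all, 62 groups of values were examined at both ends, and chance alone flags about 1 in 20. C1s1 in hApoF 12 was 6.70, with the other hApoF arrays at 7.50 to 7.71. C8g in hApoF 12 was 10.70, with the others at 10.99 to 11.09. C1s1 in GFP 2 was 7.74, with the others at 7.48 to 7.54. Fcna in hApoF 8 was 7.73, with the others at 7.25 to 7.42. Cfp in hApoF 9 was 7.48, with the others at 6.88 to 7.06.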

How the results depend on the processing

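No paired analysis was possible because the replicate numbers of the groups are not shared (1 to 6 and 7 to 12). Masp1, C8a and Mbl2 kept their direction and their call in all 20 alternatives. For the permutation test this restates that their groups did not overlap, because the genes it called were those without overlap. The number of complement genes called higher was 6 with trend and robust variance settings and among brighter genes (where 6.24% of genes were higher and 12.8% lower), and 5 without GFP 4 and hApoF 12 together. It was 2 to 6 without any single array, while 1 gene was lower throughout. In the lectin arm the count of higher genes was 2 after renewed quantile normalization and in the permutation test, 3 with trend and robust settings and among brighter genes, and 1 to 3 without single arrays. In the terminal arm it was 2 with trend and robust settings and among brighter genes, 3 without GFP 4 and hApoF 12, and 1 to 3 without single arrays. Among regulators, where Cd59a was the gene called, it was 0 in the permutation test and 0 to 1 without single arrays. The count of all genes called higher was 254 to 653 without single arrays, lowest without GFP 2.

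Reversals of sign arose in differences that did not pass. C1s1 was 0.015 and Clu 0.0094 without GFP 4 and hApoF 12, and C8g was -0.029 after renewed quantile normalization. Without single arrays the ranges were -0.18 to 0.021 for C1s1, -0.0053 to 0.10 for C2, -0.068 to 0.024 for C6, -0.097 to 0.057 for Cd46 and -0.026 to 0.040 for Clu. The pair ratios have no test; without single arrays the difference between groups ranged from -0.11 (without hApoF 12) to 0.15 for C1ra to C1s1 and from -0.13 to 0.14 for C3ar1 to C5ar1, and kept its sign for the other 5 pairs. The causes were not tested.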
